A study of Mus musculus with 4 samples.

Results

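The genes described here are the tumour suppressor p53, encoded by Trp53 in the mouse, and a set of its targets. These targets are grouped under growth arrest, but their roles are not limited to it. The genes are Trp53, Mdm2, Cdkn1a, Ccng1, Trp53inp1, Aen, Phlda3, Zmat3, Sesn1 and Gadd45a. They were chosen by name from knowledge of the pathway and found by symbol, which makes 10 of the 54446 genes in the deposited table. RNA was sequenced from mammary gland cells of wild type C57BL/6 mice that had been sorted by FACS and grown in 3D culture in Matrigel. Cells labelled basal and cells labelled luminal received either DMSO, the control, or 100 μM baicalin, a flavone glucuronide from Scutellaria roots. The question was how RNA levels in the basal and the luminal cells differ after baicalin. Each of the 4 groups has 1 library: labelled basal with DMSO, labelled basal with baicalin, labelled luminal with DMSO and labelled luminal with baicalin. The age of the mice whose cells were sequenced and the duration of the treatment are not given in the labels used here.

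The p53 protein is a transcription factor that is held at a low level by Mdm2, a ubiquitin ligase whose gene is itself switched on by p53. When DNA is damaged or other stress acts, p53 is stabilised, mostly without a change in its own RNA, and its targets stop the cell cycle, repair DNA or start cell death. The best known arrest target is Cdkn1a, which encodes the cyclin-dependent kinase inhibitor p21. Several of these targets, Gadd45a and the sestrins among them, are also switched on by other stress pathways.

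Values are FPKM, the fragments counted for a gene divided by its exon length and by the total of its library, so that levels can be compared between genes. Between 19356098 and 20648787 fragments lay behind a library. A change is log2 of the ratio of FPKM after adding 1 to each, a scale on which the ratios of low FPKM shrink, and the threshold was a change of 1. Ratios are plain FPKM ratios with exact Clopper-Pearson 95% intervals from the fragments. These intervals cover counting error only, and since no group has a replicate, no difference between conditions was tested.

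The cell labels went against most markers of these cells. All 10 basal markers were higher in the library labelled luminal than in that labelled basal with DMSO, with summed levels of 5105 and 1651 FPKM, and with baicalin the sums were 6122 and 432.1 FPKM. Krt14, a keratin of basal cells, was the most abundant of them in each of the 4 libraries, and none of the 10 was at 0. Of 11 luminal markers, 9 were lower in the library labelled luminal than in that labelled basal with DMSO and 10 with baicalin. The exceptions were Pgr and Esr1 with DMSO and Pgr with baicalin. Pgr had 1.08 FPKM in the library labelled basal and 4.81 FPKM in that labelled luminal with DMSO, and 0.911 and 2.09 FPKM with baicalin. Esr1 had 0.992 and 1.44 FPKM with DMSO, and 0.982 and 0.723 FPKM with baicalin. The summed levels of the luminal markers were 4024 FPKM in the library labelled basal and 1192 FPKM in that labelled luminal with DMSO, and 2468 and 901.7 FPKM with baicalin, with Krt8 or Krt18 the most abundant and none at 0. The labels are therefore used below as names of libraries and not as cell types. Pgr with either treatment and Esr1 with DMSO went the way the labels say. Per the methods of the study, the purity of the sorted cells was checked as a routine. Whether basal and luminal were exchanged in the column names of the table was not tested. If the labels were exchanged, each value given here for one label belongs to the other. In bulk RNA, fewer cells of a type and less RNA per cell cannot be told apart.

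With baicalin, 9 of the 10 genes were higher than with DMSO in the basal-labelled libraries, and the same number was higher in the luminal-labelled ones, with Sesn1 lower in both. In the basal-labelled libraries, 7 of the 10 passed the threshold upwards, as 2.15% of the 17787 genes tested did, and 0 passed it downwards, as 3.33% of genes did. In the luminal-labelled ones, 4 were higher by more than 1, against 2.37% of genes, and 0 lower, against 1.59%. All 10 genes were among the genes tested, which are those with an FPKM above 0 in all 4 libraries. The median change of the 10 genes was 1.29 in the basal-labelled libraries and 0.78 in the luminal-labelled ones, beside medians over all genes tested of 0.01 and -0.02.

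**Figure D1:**
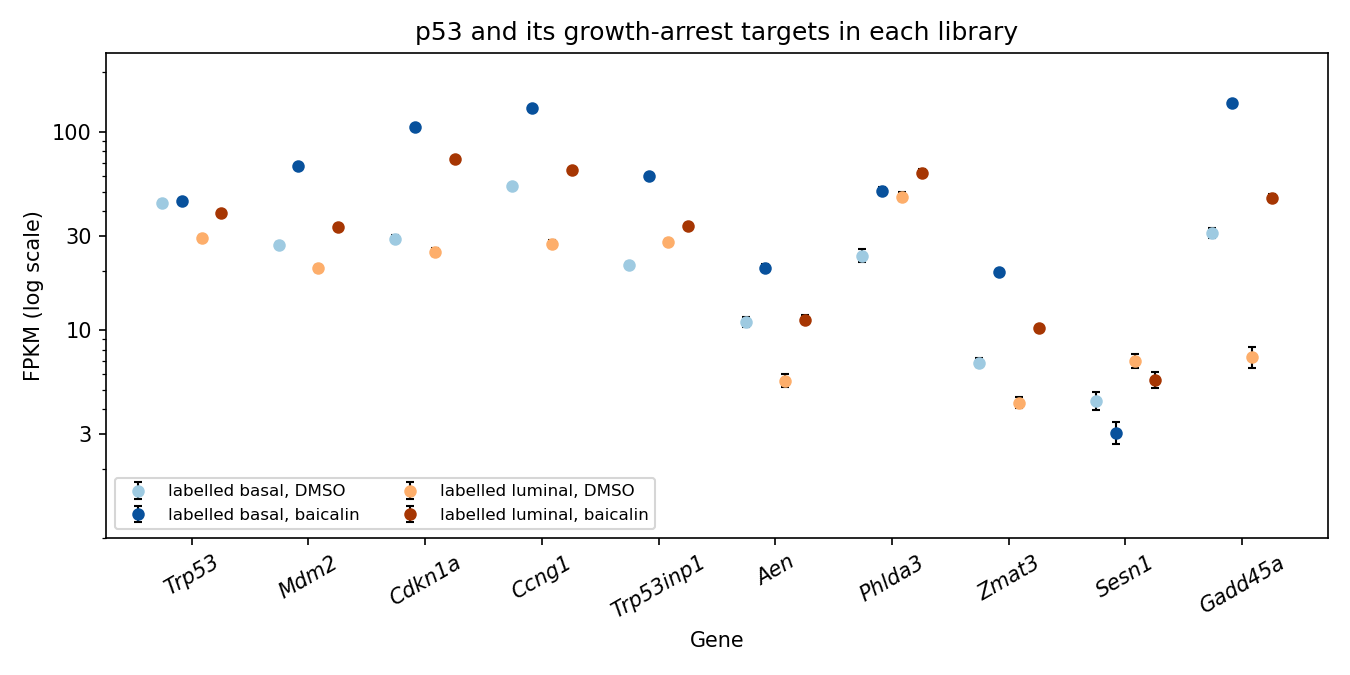
FPKM, on a log axis, of each of the 10 genes in the 4 libraries, with exact Poisson 95% intervals that cover counting error only and are often smaller than the points. Light points are DMSO and dark points baicalin, blue for the label basal and orange to brown for the label luminal. The dark points lie above the light points of the same label for each gene but Sesn1, and for Trp53 with the label basal the intervals overlap.

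Trp53 (chromosome 11, 69580359 to 69591873 of GRCm38), the gene of p53 itself, had 43.7 FPKM with DMSO and 45.0 FPKM with baicalin in the basal-labelled libraries, and 29.1 and 38.9 FPKM in the luminal-labelled ones. Its ratio of baicalin to DMSO was 1.03 (0.984 to 1.08) in the former, which is within counting error, and 1.34 (1.27 to 1.41) in the latter. The RNA of p53 was thus below the threshold with either label. Mdm2 (chromosome 10, 117688875 to 117710758), the inhibitor of p53 and also its target, had 27.0 and 67.6 FPKM with DMSO and baicalin in the basal-labelled libraries and 20.5 and 33.0 FPKM in the luminal-labelled ones. It was 2.50-fold higher with baicalin (2.39 to 2.62) in the former, past the threshold, and 1.61-fold higher (1.52 to 1.70) in the latter, below it. In each label the library with baicalin was the higher for Mdm2, and its level with baicalin in the label luminal lay above that with DMSO in the label basal.

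Of the 10 genes, Gadd45a and Cdkn1a had the largest changes with both labels. Gadd45a (chromosome 6, 67035096 to 67037457), whose product binds p21 and PCNA and inhibits Cdk1, had 30.9 FPKM with DMSO and 140.7 FPKM with baicalin in the basal-labelled libraries, and 7.32 and 46.6 FPKM in the luminal-labelled ones. The ratios were 4.55 (4.26 to 4.87) and 6.37 (5.57 to 7.30), with changes of 2.15 and 2.52. The level of Gadd45a in the library labelled luminal with DMSO stood well below the other 3. Cdkn1a (chromosome 17, 29090976 to 29100727), the gene of p21, rose from 29.0 to 106.2 FPKM in the basal-labelled libraries and from 24.7 to 72.7 FPKM in the luminal-labelled ones. These are ratios of 3.66 (3.48 to 3.84) and 2.94 (2.78 to 3.11), and both libraries with baicalin lay above both with DMSO. Ccng1 (chromosome 11, 40748552 to 40755311) encodes cyclin G1, which recruits a phosphatase to Mdm2. It had 53.1 and 131.3 FPKM with DMSO and baicalin in the basal-labelled libraries and 27.2 and 64.2 FPKM in the luminal-labelled ones, 2.47-fold (2.38 to 2.57) and 2.36-fold (2.24 to 2.49) higher with baicalin.

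Zmat3 passed the threshold with both labels, and Trp53inp1 and Phlda3 with the label basal. Zmat3 (chromosome 3, 32334792 to 32366014), an RNA-binding zinc finger protein, had 6.86 and 19.8 FPKM with DMSO and baicalin in the basal-labelled libraries and 4.31 and 10.2 FPKM in the luminal-labelled ones, with ratios of 2.88 (2.72 to 3.05) and 2.37 (2.20 to 2.56). Trp53inp1 (chromosome 4, 11156431 to 11174379), a nuclear protein that promotes p53 activity, had 21.4 and 60.03 FPKM in the basal-labelled libraries, a ratio of 2.80 (2.69 to 2.93). In the luminal-labelled ones it had 27.9 and 33.6 FPKM, a ratio of 1.20 (1.15 to 1.26). Its level with DMSO was thus the higher in the label luminal and its level with baicalin the higher in the label basal. Phlda3 (chromosome 1, 135766119 to 135769136), a pleckstrin-homology protein that represses Akt, had 23.8 and 50.5 FPKM in the basal-labelled libraries and 47.2 and 62.2 FPKM in the luminal-labelled ones. Its ratios were 2.13 (1.95 to 2.32), past the threshold, and 1.32 (1.23 to 1.41), below it.

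Aen and Sesn1 lay within the threshold with both labels, Aen close to it. Aen (chromosome 7, 78895854 to 78911209), a nuclease induced by p53, had 11.0 and 20.7 FPKM with DMSO and baicalin in the basal-labelled libraries and 5.58 and 11.3 FPKM in the luminal-labelled ones, with ratios of 1.88 (1.76 to 2.01) and 2.02 (1.84 to 2.23) and changes of 0.85 and 0.90. Without a pseudocount its change with the label luminal was 1.02. Of the 10 genes, 5 in place of 4 were higher past the threshold with that label without a pseudocount or with 0.1. Over all genes tested, the count of higher genes went from 421 to 1559 and 1052 in these settings. Sesn1 (chromosome 10, 41809935 to 41908424), a sestrin that restrains mTORC1, had 4.41 and 3.05 FPKM in the basal-labelled libraries and 7.01 and 5.61 FPKM in the luminal-labelled ones. It was lower with baicalin in both, with ratios of 0.690 (0.584 to 0.815) and 0.8003 (0.705 to 0.908) that lie outside counting error, and it was the least abundant of the 10 genes in 3 libraries. For Mdm2, Cdkn1a, Ccng1, Aen, Zmat3 and Gadd45a the order of the levels was the same, from the library labelled basal with baicalin through luminal with baicalin and basal with DMSO to luminal with DMSO. In that order only the middle pair of Aen overlapped in their counting intervals.

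The ratio of baicalin to DMSO could be set side by side between the labels, since these comparisons share no library. The ratio was larger in the label luminal beyond counting error for 2 of the 10 genes, Trp53 and Gadd45a, and smaller for 5. For 3, Ccng1, Aen and Sesn1, the difference was within counting error. The same count over all genes tested was not made, so these counts do not set the 10 genes apart. Trp53inp1 differed most, its ratio in the label basal being 2.33 times that in the label luminal (2.19 to 2.48), followed by Phlda3 with 1.61 times (1.44 to 1.81) and Mdm2 with 1.55 times (1.45 to 1.67). For Gadd45a the ratio in the label luminal was 1.40 times that in the label basal (1.20 to 1.63). Whether the labels respond differently was not tested, as each ratio rests on 1 pair of libraries.

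The comparisons of the labels use the same 4 libraries as those of the treatments. With DMSO, 0 of the 10 genes were higher in the library labelled luminal by more than 1, where 4.71% of genes were, and 1 was lower, where 3.86% of genes were. That gene was Gadd45a, 4.22-fold lower (3.67 to 4.86). With baicalin 0 were higher, against 5.24% of genes, and 3 were lower, against 2.99%. They were Gadd45a, 3.02-fold lower (2.85 to 3.19), and Mdm2 and Ccng1, each with a ratio of 0.489 and a change just past the threshold, -1.01 and -1.02. The count of 3 became 1 when changes were centred on the median over all genes, and with values scaled to TPM the count of 1 with DMSO became 3. Over all genes tested, the counts of lower genes went from 531 to 487 and from 686 to 1279 in these settings. Phlda3 and Sesn1 went the other way and were higher in the label luminal with either treatment, by 1.99-fold (1.82 to 2.17) and 1.59-fold (1.39 to 1.82) with DMSO.

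Related genes without a place among the 10 were followed as a list of 15 family members. Of these, 2 were higher and 1 lower by more than 1 with baicalin in the basal-labelled libraries, and 2 higher and 0 lower in the luminal-labelled ones, with medians of 0.13 in both. The latter median was 0.23 without a pseudocount and 0.21 with at least 10 fragments, where the former was 0.14 and 0.13. Sesn2, the sestrin that responds to p53 and to amino acid stress, had 6.45 and 28.1 FPKM with DMSO and baicalin in the basal-labelled libraries and 10.6 and 26.2 FPKM in the luminal-labelled ones, with changes of 1.97 and 1.23 where Sesn1 was lower. Sesn3 was lower as well, with changes of -0.08 and -0.26 that lie outside counting error. The other growth arrest and DNA damage genes went the way of Gadd45a at a smaller size, with changes of 0.92 and 0.47 for Gadd45b and 0.95 and 1.10 for Gadd45g.

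Among the relatives of p53 itself, Trp63, which basal cells of stratified and glandular epithelia need, had 6.01 FPKM with DMSO and 0.305 FPKM with baicalin in the basal-labelled libraries, 19.7-fold lower (14.9 to 26.5). In the luminal-labelled ones it had 25.2 and 27.0 FPKM. Trp73 rested on 49 fragments with DMSO and 1 with baicalin in the label basal, a ratio of 0.0200 (0.000496 to 0.117), and on 260 and 258 fragments in the label luminal. Trp63 is itself among the 10 basal markers. Over the same comparison 9 of these were lower, 7 of them beyond counting error, and most of the fall in their sum was that of Krt14, from 1494 to 417.3 FPKM. The part of cell composition in these values was not tested. Among the relatives of p21, Cdkn1c (p57) had 0.148 and 3.12 FPKM in the basal-labelled libraries, on 6 and 129 fragments, and 0.203 and 0.237 FPKM in the luminal-labelled ones. Cdkn1b (p27) had changes of 0.08 and -0.54. The remaining family members, Mdm4, Ccng2, Trp53inp2, Isg20, Isg20l2, Phlda1 and Phlda2, lay within the threshold with both labels.

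Regulators of p53 had medians near 0. Of 19 listed, 0 were higher and 2 lower by more than 1 in the basal-labelled libraries, and 0 in either direction in the luminal-labelled ones, the medians being -0.06 and -0.05. The 2 were Cdkn2a, whose locus encodes the Mdm2 inhibitor Arf beside p16, and the checkpoint kinase Chek1, with changes of -1.23 and -1.12. Mdm4, the partner of Mdm2, was 1.64-fold higher (1.58 to 1.71) in the label basal and 1.10-fold (1.05 to 1.15) in the label luminal. The largest changes in the label luminal were those of the p53 phosphatase Ppm1d, Chek1 and Chek2, with -0.40, -0.33 and -0.25. The median of the 19 was -0.10 in the label basal with TPM. In the label luminal it was -0.03 when changes were centred on the median over all genes.

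Targets of p53 in cell death were mostly higher with baicalin. Of 13, 4 were higher and 1 lower by more than 1 in the basal-labelled libraries, and 2 higher and 0 lower in the luminal-labelled ones, with medians of 0.68 and 0.58. Eda2r, a receptor of the TNF receptor family, went from 5.74 to 20.4 FPKM and from 1.81 to 6.92 FPKM. Bax, a pore-forming protein of mitochondria, went from 20.5 to 50.2 FPKM and from 12.7 to 20.6 FPKM, and Pmaip1 (Noxa) from 19.6 to 41.2 FPKM and from 9.997 to 36.0 FPKM. These 3 were higher with both labels, Bax below the threshold in the label luminal. Dram1, a lysosomal membrane protein, was lower in the label basal, from 4.99 to 1.07 FPKM, and had 12.8 and 12.4 FPKM in the label luminal. Perp, a desmosome protein, had a change of 0.15 in the label basal and 0.83 in the label luminal.

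Of 23 further targets in arrest, metabolism and repair, 22 were tested, Rprm being listed at 0 in the library labelled basal with DMSO. In the basal-labelled libraries 5 were higher and 1 lower by more than 1, and in the luminal-labelled ones 5 were higher and 0 lower. The medians were 0.50 and 0.21, or 0.54 and 0.32 without a pseudocount. Gdf15, a secreted stress cytokine, went from 3.26 to 60.6 FPKM and from 1.51 to 9.15 FPKM, ratios of 18.6 (15.5 to 22.5) and 6.08 (4.55 to 8.25). Plk2, a polo-like kinase, had changes of 1.34 and 1.16, and Ephx1, an epoxide hydrolase, 1.73 and 0.74. Gdf15 and Sesn2 are also targets of the ATF4 stress pathway. Sfn (14-3-3 sigma), singled out after its values were seen, was the lower gene with the label basal and among the higher with the label luminal. It went from 152.2 to 75.5 FPKM and from 175.6 to 382.7 FPKM, and its difference of 2.12 between the changes was not tested.

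Genes listed for the ATF4 and NRF2 stress pathways were also higher with baicalin. All 7 ATF4 genes were higher with both labels, 4 and 3 of them by more than 1, with medians of 1.27 in the label basal and 0.9998 in the label luminal. Trib3 had changes of 2.11 and 2.47, Chac1 of 1.99 and 2.42, Ddit3 of 1.89 and 0.90 and Asns of 0.99 and 1.32. All 8 NRF2 genes were higher with both labels, 6 and 5 of them by more than 1, with medians of 1.84 and 1.56. Hmox1, which breaks down haem, had changes of 2.50 and 1.75, Nqo1 of 2.02 and 1.70 and Srxn1 of 1.81 and 2.33. Slc7a11, the cystine transporter, had 4.37 and 3.49, but parts of its exons, the longest of 375 bases, match other genes, so that some of its fragments are uncertain. The part of these pathways in the levels of the 10 genes was not tested.

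Of 11 p21 partners, which are cyclins, their kinases and PCNA, 9 were lower and 2 higher with baicalin with each label. By more than 1, 1 was higher and 4 were lower in the basal-labelled libraries, and 1 higher and 1 lower in the luminal-labelled ones, with medians of -0.51 in both. Ccna2 (cyclin A2) went from 26.5 to 2.15 FPKM in the label basal and from 29.8 to 12.5 FPKM in the label luminal. Cdk1 had changes of -2.11 and -0.77 and Ccne2 of -1.72 and -0.96. Ccnd2 (cyclin D2) was the gene past the threshold upwards in both, with 0.867 and 3.85 FPKM in the label basal and 20.2 and 55.3 FPKM in the label luminal. Ccnd1 (cyclin D1), named after its values were seen, was the other higher gene, with changes of 0.14 and 0.17. Exons of Ccna2 and Ccne2 overlap Exosc9 and Ints8 on the opposite strand.

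The DREAM complex represses cell cycle genes once p21 has stopped the cyclin-dependent kinases. All 28 genes listed for it were lower with baicalin with both labels. Of these, 26 were lower by more than 1 in the basal-labelled libraries, against 3.33% of genes, and 7 in the luminal-labelled ones, against 1.59%. The medians were -2.15 and -0.76. Mki67, the proliferation marker Ki-67, went from 54.0 to 4.06 FPKM in the label basal, 13.3-fold lower (12.4 to 14.3), and from 68.6 to 25.9 FPKM in the label luminal, 2.65-fold lower (2.57 to 2.74). Plk1 had changes of -2.91 and -0.75 and Top2a of -2.79 and -1.02. In the label luminal Cdc25c and Mcm6 followed Mki67 with -1.26 and -1.14. With DMSO the list's median difference between the labels was 0.07, or -0.03 with TPM, and with baicalin it was 1.37. With baicalin 23 of the 28 were higher in the label luminal by more than 1, against 5.24% of genes. The part of p21 and of DREAM in these levels was not tested.

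**Figure D2:**
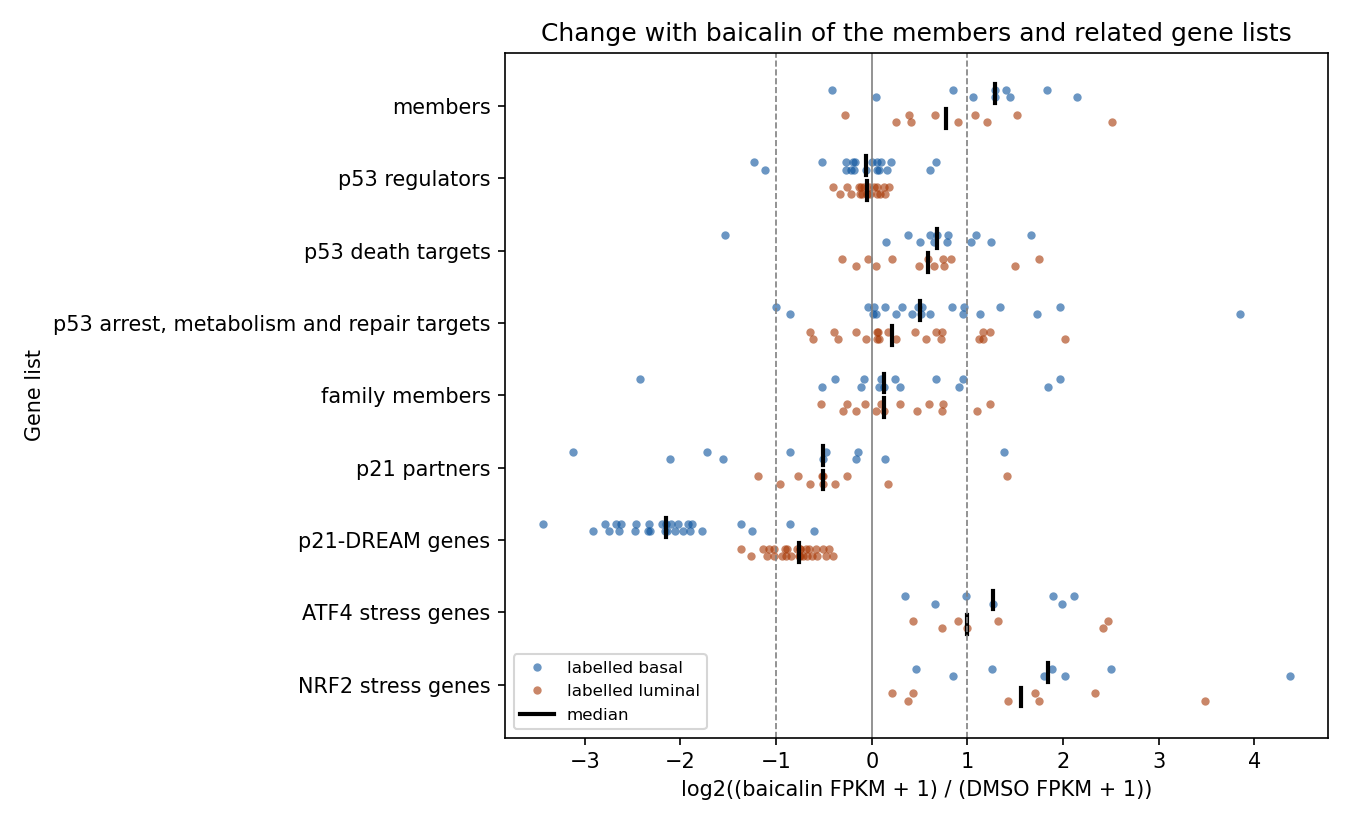
Change of each gene tested in 9 lists, as log2 of the ratio of baicalin FPKM plus 1 to DMSO FPKM plus 1, with blue points for the label basal, brown points for the label luminal and a black bar at each median. Dashed lines mark changes of -1 and 1. The 10 genes have medians of 1.29 and 0.78, and the 28 p21-DREAM genes lie below 0 with both labels.

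Markers of other cell types were low or mixed. The 6 fibroblast markers summed to 6.61, 2.60, 10.4 and 8.73 FPKM in the libraries labelled basal with DMSO, basal with baicalin, luminal with DMSO and luminal with baicalin, with Col1a1 or Pdgfra the most abundant and none at 0. The 5 immune markers summed to 16.4, 53.6, 5.41 and 16.4 FPKM in the same order. Cd68, a lysosomal protein of macrophages that other cells also make, gave 51.5 FPKM of the sum in the library labelled basal with baicalin, where Ptprc, Cd3e and Adgre1 were at 0. The 4 endothelial markers summed to at most 3.25 FPKM in a library, with Cdh5 or Pecam1 the most abundant and none at 0. The 4 adipocyte markers summed to 0.163, 0.884, 15.8 and 5.45 FPKM, Fabp4 being the most abundant in each library. Plin1 and Cidec were at 0 in the library labelled basal with DMSO, and Adipoq and Cidec in that labelled basal with baicalin. The antibodies of the study's sorting include those to CD31, CD45 and TER119, which mark endothelial, blood and erythroid cells. The part of these cell types in the levels of the 10 genes was not tested.

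Among 9144 genes with at least 5 FPKM in a library, the profile nearest to that of Cdkn1a over the 4 libraries was that of Slc48a1, a haem transporter, at a Euclidean distance of 0.16 between centred log2 profiles. It had 34.1 and 139.2 FPKM in the basal-labelled libraries and 30.7 and 82.5 FPKM in the luminal-labelled ones. Trex2, Snhg12, Cat and Slc22a4 followed at distances of 0.17 to 0.28. Nearest to the median profile of the 10 genes were AL805899.1, Sat1, Gm6900, Ppp1r15a and Hexa, at 0.08 to 0.15. With 4 libraries many genes share such a profile, and Ppp1r15a also stands in the ATF4 list.

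Promoters in RefSeq (GRCm38.p6), 250 bases before to 50 after each gene start, were listed for 8 of the 10 genes, with Trp53inp1 and Zmat3 missing. The p53 half-site, a decamer that is only part of a full p53 response element, was searched on both strands. It was found in 7 of the 8, and in 9.55% of the 27025 genes with a promoter in the table. A gene with several starts counted once. Of the other listed p53 targets with a promoter, 3 of 10 in cell death and 2 of 18 in arrest, metabolism and repair had it. Among the 8, Phlda3 was the gene without it. The 10 genes were chosen as p53 and its targets, so their share is not independent of that choice. Sesn1 had it for the listed start at 41887439 and not for that at 41810574. Trp53, Aen and Sesn1 had a match but did not pass the threshold, and Phlda3 passed it with the label basal without a match. Whether a match goes with a change was not tested. Windows of 30 bases are shown for the genes that had a match and passed the threshold with either label, with the decamer in capitals.
Cdkn1a: tggccttcagGAACATGTCTtgacatgttc
Mdm2: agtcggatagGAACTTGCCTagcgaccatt
Ccng1: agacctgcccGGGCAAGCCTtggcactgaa
Gadd45a: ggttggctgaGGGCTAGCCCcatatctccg
The windows lie at chr17:29090918-29090947 on the plus strand, and on the minus strand at chr10:117710925-117710954, chr11:40755452-40755481 and chr6:67037428-67037457. The decamers begin 51, 186, 185 and 40 bases before the RefSeq start. For Gadd45a that start is 67037407, and the window lies inside the longer GENCODE gene given above. In Cdkn1a another decamer begins 73 bases before the start of that gene used here, and its other listed start has none. A pair of CATG with 6 bases between them, searched on both strands, overlaps the decamer shown for Cdkn1a and was found in no other of the 8, and in 0.833% of genes in the table.
The pair is in capitals in this window, at chr17:29090923-29090952 on the plus strand.
Cdkn1a: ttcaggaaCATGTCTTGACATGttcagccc
These matches describe the letters of the windows and do not show binding.

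Some fragments of the 10 genes cannot be assigned with certainty. Trp53 has a processed copy, Trp53-ps, with 97.7% identity over 353 bases and 2.08 to 2.49 FPKM in the 4 libraries. Of the 1764 exon bases of Gadd45a, 337 overlap E230016M11Rik on the opposite strand, which had 0.525 to 1.19 FPKM. Of the 3553 exon bases of Cdkn1a, 273 overlap AC167363.2 on the opposite strand, which had at most 0.0963 FPKM.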

How the data were processed

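Per the methods of the study, mRNA was enriched with oligo (dT) beads, stranded libraries were sequenced on an Illumina instrument, reads were aligned to GRCm38 with HISAT2 and counted per gene with featureCounts. The authors deposited FPKM for 54446 genes. The submitters' processing notes also name Bowtie 0.12.2 and the builds mm8 and GRCm38. Whether fragments were counted by strand is not given in the sources used here, so antisense overlaps are uncertain.

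Exon lengths came from GENCODE mouse release 21 for 54409 genes. FPKM times exon length fell on steps of 1 fragment for most low genes, giving 19853603 and 20283075 fragments for the libraries labelled basal (DMSO, baicalin) and 19356098 and 20648787 for those labelled luminal. At least 99.0% of low genes came out within 0.1 of a whole fragment. Of the 170 listed genes, 7 lay further off in a library (Acta2, Cdc25c, Daxx, Epcam, Fas, Kat5 and Pmaip1), none of them among the 10, and their fragments are approximate. Changes used a pseudocount of 1 FPKM, a threshold of 1 and the 17787 genes above 0 in all 4 libraries. The symbol Ddit3 stands on 2 rows, and the row above 0 was used. Copies were sought at 95% identity over at least 200 bases.

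The members and lists were chosen with earlier results of these data known. Named genes were the members, the family members, the 3 genes with the largest change per label in each other list, the 5 nearest profiles, the cell markers and listed genes with opposite changes. Ccnd1, and Rprm for its value of 0, were added after their values were seen. An immune marker of the original list is not reported here, and the immune sums leave it out. The computation was tested on simulated data. Alternatives were other pseudocounts, thresholds, filters and scalings. The tools were scipy 1.17.1, numpy 2.4.6, matplotlib 3.10.9 and pandas 2.3.3 under Python 3.11.15.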

Additional observations from a re-analysis of the deposited data

Results flagged for a closer look

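In 18 of the 163 listed genes tested the change with baicalin went in opposite directions with the labels, each beyond counting error. Of the 18, 10 are cell markers. How many of all genes tested did so was not counted, so these counts do not set the listed genes or the markers apart. Among relatives of the 10 genes, Trp63, also a basal marker, had a change of -2.43 with the label basal and 0.09 with the label luminal, a difference of 2.52 on the log2 scale. Trp53inp2 had -0.38 and 0.29, a difference of 0.67. Ccng2 had 0.13 and -0.30, so that the label luminal minus the label basal gave -0.43. Among p53 targets and regulators, Sfn was lower with the label basal and higher with the label luminal, a difference of 2.12. Btg2, Siva1, Ddb2, Atr and Rpl11 were higher with the label basal and lower with the label luminal, with differences of -1.46, -1.11, -0.81, -0.31 and -0.29.

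The basal markers Krt5, Krt14 and Cdh3 were lower with the label basal and higher with the label luminal, with differences of 5.27, 2.28 and 0.97. The fibroblast markers Col1a1, Col1a2, Dcn and Lum went the same way with differences of 1.49, 0.97, 1.09 and 0.52, Lum on at most 16 fragments in a library. Lyz2, an immune marker, did so with a difference of 2.56. Fabp4, an adipocyte marker, was higher with the label basal and lower with the label luminal, a difference of -1.72. These differences between the labels were not tested, since each label has 1 library per treatment.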

How the results depend on the processing

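No change of the 10 genes and no median of the lists for baicalin against DMSO changed sign under the alternatives tried. The medians of the other lists between the labels were added to the comparison after the data were seen. Of these, 3 changed sign, each under TPM: with DMSO the DREAM list from 0.07 to -0.03 and the cell death targets from 0.08 to -0.01, and with baicalin the regulators of p53 from 0.00 to -0.07. The median over all genes tested lay within 0.1 of 0 in each, and under TPM it went from 0.01 to -0.01 for baicalin with the label basal and from 0.01 to -0.06 between the labels with DMSO. The latter also fell below 0 with at least 10 fragments and with protein-coding genes alone. Counts of genes past the threshold are given as higher and lower. For baicalin against DMSO with the label basal (383 and 592), they were 1123 and 1302 with a pseudocount of 0.1, 1693 and 2054 with none, 696 and 1002 with TPM, and 41 and 132 with a threshold of 2. With the label luminal (421 and 282), they were 1052 and 913, 1559 and 1537, 718 and 578, and 60 and 46 in the same order. For the label luminal against basal with DMSO (837 and 686), they were 2027 and 1467, 2872 and 1926, 1306 and 1279, and 185 and 150. With baicalin (932 and 531), they were 2030 and 1327, 2632 and 2003, 1439 and 1083, and 242 and 59. A smaller pseudocount lets more low genes pass, and 1 TPM is a smaller share of a library than 1 FPKM.

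Of the 10 genes, 1 passed a threshold of 2 upwards with baicalin with the label basal, where 41 of the 17787 genes tested did. With the label luminal 1 passed it, where 60 did. Between the labels 0 passed it downwards, where 150 did with DMSO and 59 with baicalin. The count of the 10 genes lower past the threshold between the labels went from 1 to 3 with DMSO under TPM. Over all genes it went from 686 to 1279. With baicalin it went from 3 to 1 under centring on the median, and over all genes from 531 to 487. The median change of the 10 genes between the labels moved from -0.47 to -0.59 with DMSO and from -0.82 to -0.91 with baicalin under TPM. The other 58 of 64 counts of these genes stayed within 1.5 times, and 26 of 28 of their medians within counting error. Of the medians of the other lists 109 of 112 stayed within counting error for baicalin and 103 of 112 between the labels, and of the changes of single genes 101 of 120. No paired analysis was possible within a label because each group has 1 library, and a fit of the treatment over both labels together was not made. With 1 library per group, the spread between cultures is unknown, and treatment and differences between cultures cannot be told apart.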
